A study of Mus musculus with 24 samples.

Results

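The 10 genes described here encode enzymes and chaperones that act on collagen chains inside the endoplasmic reticulum (ER): Fkbp10, Rcn3, Serpinh1, P4ha1, P4ha2, P4ha3, Plod1, Plod2, Plod3 and P3h1. They were chosen by name, and every probe whose RefSeq transcript maps to one of these symbols was taken, which gave 16 probes for 10 of the 45547 gene names read on the array. Fkbp10 and Rcn3 led to the choice because of their differences between D, DB#1 or DB#3 and M, so values of the 10 genes in those 3 comparisons are a description with no test, and Fkbp10 and Rcn3 are described without a test wherever the arrays of those lines enter. Where the text says that such a value was called in the fit across all genes, it states how the table reads and supports nothing. The arrays read total RNA from cultures of 7 mouse lines. M (B16F1-GFP-M, 3 arrays) is the parental melanoma line carrying GFP. D (B16F1-GFP-D, 4 arrays) was recovered after a year of dormancy in mice vaccinated with irradiated melanoma cells that overexpress GM-CSF. DB#1 (4 arrays), DB#2 (3 arrays) and DB#3 (3 arrays) are lines of a further generation of D recovered from the brain, and all were grown in culture before RNA was taken, so the arrays do not read cells in the animal. M0 (4 arrays) and J365 (3 arrays) are described only as myeloid cells, and the labels give no treatment for them. Titles of the myeloid arrays also carry the tag p20, which no melanoma title does. No label says that arrays of a line came from separate cultures, so the spread and the p-values cover only the variation between these arrays.

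A procollagen chain is modified before it folds. Prolyl 4-hydroxylases (catalytic subunits P4ha1, P4ha2 and P4ha3, partnered by P4hb) hydroxylate proline and make the triple helix stable at body temperature, lysyl hydroxylases (Plod1, Plod2 and Plod3) prepare the sites of cross-links and of sugar attachment, and P3h1 modifies single prolines in a complex with Crtap and Ppib. Serpinh1 (HSP47) holds the folded helix until it leaves the ER, Fkbp10 (FKBP65) is a prolyl isomerase and chaperone that also acts with Plod2, and Rcn3 is a calcium-binding protein of the ER lumen. These genes are best known from fibroblasts and bone cells, and inherited defects of several of them cause brittle bones or loose joints.

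Markers separated the melanoma from the myeloid arrays as the labels give them, and did not tell apart M0 and J365. The 12 melanocyte markers averaged a normalized log2 signal of 5.43 to 6.65 per melanoma array (17 arrays), while each of the 7 myeloid arrays averaged -4.41 to -4.13, and 12 blood cell markers read 2.82 to 3.51 in the myeloid lines against -4.54 to -2.88 in the melanoma lines. Normalized log2 signal is the log2 of an array's processed intensity less that array's 75th percentile, so that a difference of 1 is 2-fold. Melanocyte marker averages were 6.22 to 6.52 in M, 5.96 to 6.06 in DB#1, 6.13 to 6.50 in DB#2 and 5.85 to 6.19 in DB#3. M thus lay above DB#1 and DB#3 without overlap, and D, at 5.43 to 6.65, overlapped every melanoma line. The share of probes well above background was 43.6% to 53.8% on 23 arrays and 89.9% on D replicate 3. That array read 10 of 12 fibroblast markers above background where the other melanoma arrays read 1 to 3. It likewise read 10 of 12 blood cell markers where the others read 3 to 7. Of 10 brain glia and endothelial markers it read 8 where the others read 5 to 7. Since levels were measured in bulk, fewer cells carrying a transcript and less transcript per cell cannot be told apart.

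Fkbp10 spanned the widest range of the 10 genes among the melanoma lines. Its normalized log2 signal in M was -3.15, -3.87 and -3.56. In D it read 1.49, 1.37, 0.67 and 1.03. All 4 D arrays therefore lay above all 3 M arrays by more than the spread within either line. DB#1 gave 3.41, 2.74, 2.95 and 2.70, and DB#3 gave 3.07, 2.87 and 3.04. DB#2 stood apart from its sister lines at -0.89, -0.92 and -1.64, below every D array and above every M array. In M0 and J365 no array was well above background for Fkbp10, with readings of -6.14 to -5.11 and -6.34 to -4.77. Ordered from the highest mean, the lines ran DB#3, DB#1, D, DB#2, M, M0 and J365, and only DB#3 with DB#1 and M0 with J365 overlapped among neighbours.

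Expressed as differences of log2 signal, Fkbp10 was higher than in M by 4.67 ± 0.33 (SE) in D, by 6.48 ± 0.33 in DB#1, by 6.52 ± 0.35 in DB#3 and by 2.38 ± 0.35 in DB#2. These 4 comparisons share the 3 M arrays. Fkbp10 in M, at -3.87 to -3.15, was near the dimmest signal that counts as above background, which averaged -4.29 over the M arrays. Each of 3 slides carried arrays of every line, and the difference within a slide was 4.18 to 4.99 for D, 5.87 to 7.29 for DB#1, 6.21 to 6.74 for DB#3 and 1.51 to 2.98 for DB#2. DB#2 lay below its relatives, with a log2 difference of -2.29 from D, -4.10 from DB#1 and -4.14 from DB#3. Of 12 fibroblast markers, Pdgfrb was well above background on all 4 D arrays and on every DB array but on none of the 3 M arrays. Others did not share that pattern: Pdgfra was read on all 3 M arrays and on no DB#2 array, Dcn on 1 D array and all 3 DB#2 arrays, Postn on 2 M arrays, Lum on 1 DB#1 array and Twist2 on none. The list averaged -5.84 to -5.55 in M, -5.64 to -5.08 in the DB lines and -5.47 to -5.06 on 3 D arrays, with -3.22 on D replicate 3. The part of such cells in the Fkbp10 values was not tested.

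Rcn3 followed the same order of M, DB#2 and D, but its myeloid levels were the reverse of those of Fkbp10. Its brightest probe read -4.02, -3.66 and -3.62 in M and 0.68, 1.05, 0.67 and 0.98 in D. DB#1 was tightly grouped at 2.10, 2.25, 2.31 and 2.12. DB#3 read 0.45, 1.25 and 1.43, and DB#2 read -1.09, -0.12 and -0.06. The melanoma lines thus separated fully from one another except for DB#3 and D, whose arrays overlapped. M0 gave 5.46, 4.99, 4.71 and 3.42, and J365 gave 5.40, 5.34 and 4.41. All 7 myeloid arrays lay above all 17 melanoma arrays, and the lowest value of each myeloid line was that of the array whose label carries no replicate number.

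**Figure D1:**
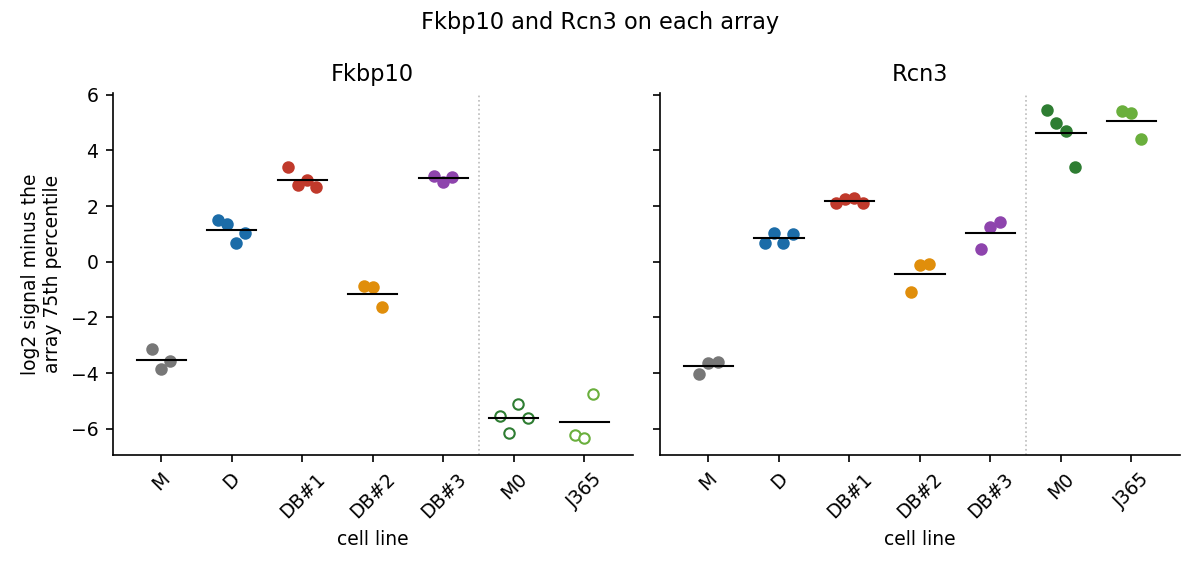
Normalized log2 signal (log2 intensity minus the array's 75th percentile) of Fkbp10 and Rcn3 on each of 24 arrays by cell line, with the brightest probe of each gene; filled points are well above background, open points are not, and bars are line means. Both genes are lowest of the melanoma lines in M, and only Rcn3 is read in M0 and J365, where every point lies above those of the melanoma lines.

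Differences of Rcn3 from M were 4.61 ± 0.37 (SE) in D, 5.96 ± 0.37 in DB#1, 4.81 ± 0.39 in DB#3 and 3.34 ± 0.39 in DB#2. Within slides they ran from 4.33 to 5.01 in D, from 5.76 to 6.21 in DB#1, from 4.47 to 5.04 in DB#3 and from 2.56 to 3.96 in DB#2. The M readings, at -4.02 to -3.62, were near the dimmest signal that counts as above background, which averaged -4.29 over the M arrays. DB#2 differed by -2.62 from DB#1, by -1.47 from DB#3 and by -1.27 from D, and DB#3 by -1.15 from DB#1, all on the log2 scale. Rcn3 was the only one of these 2 genes that could be tested between the myeloid lines, and J365 differed from M0 by 0.40 ± 0.37 (SE, adjusted p 0.96), a 95% interval of -0.37 to 1.18.

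A further 2 probes of Rcn3 also placed M lowest, DB#2 next and DB#1 highest of the melanoma lines, with D above DB#3. Neither was well above background on any M array, so their differences from M are lower bounds, set by the mean of the brighter line over the dimmest signal that still counts as above background on each M array. For the second probe the bounds were at least 6.53-fold in D, 9.42-fold in DB#1, 3.83-fold in DB#3 and 1.96-fold in DB#2, and without D replicate 3 at least 4.21-fold in D. For the third they were at least 2.92-fold, 4.01-fold and 1.62-fold in D, DB#1 and DB#3, or 2.08-fold in D without that array, and only 1 of 3 DB#2 arrays was above background. D replicate 3 read both dim probes well above the other D arrays, at 0.31 against -2.59 to -1.79 for the second and at -1.26 against -3.56 to -2.88 for the third.

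Over the 17 melanoma arrays, Fkbp10 and Rcn3 correlated at Pearson's r = 0.93, a description of arrays that share lines and slides. The genes nearest to Fkbp10 by the same measure, of 13222 compared, were C1qtnf12 (r = 0.98), a secreted C1q and TNF related protein, then Crmp1 (0.97), Pard6g (0.97), Lysmd2 (0.96) and Krba1 (0.96). Nearest to Rcn3 were Dhdh (0.97), Mageh1 (0.97), Ripk3 (0.96), a kinase of necroptosis, Bcar3 (0.96) and Bhlhb9 (0.96). Mean log2 signal of C1qtnf12 was -0.09 in M, 0.54 in DB#2, 1.42 in D, 1.94 in DB#1 and 2.04 in DB#3, the order of Fkbp10 over a narrower range.

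P4ha2, the alternative catalytic subunit of prolyl 4-hydroxylase, differed less among the melanoma lines; in the fit across all genes it was called in D and DB#1 against M, which is described here without a test. It read 1.68, 1.20 and 1.11 in M. D gave 2.35, 2.32, 1.76 and 2.34, and DB#1 gave 2.16, 2.28, 2.26 and 2.38. Every D and DB#1 array was above every M array, with D replicate 3 nearest to them. DB#2 read 2.12, 1.66 and 1.70 and DB#3 read 1.70, 1.80 and 1.86, which places both lines between M and D. The difference from M was 0.86 ± 0.17 (SE) in D and 0.94 ± 0.17 in DB#1, each under 2-fold, and 0.45 ± 0.19 in DB#3. In DB#2 it was 0.50 ± 0.19 (adjusted p 0.214), which did not pass. Within slides the D difference was 1.22, 0.56 and 0.66, and the DB#2 difference ranged from 0.02 to 0.92. The call in D was lost without M replicate 3, where the difference was 0.75, and when only the D and M arrays were fitted, which left the difference at 0.86.

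Of the other 7 genes, 6 were read on every melanoma array and, by the brightest probe, stayed within narrow bounds among the melanoma lines. Serpinh1 read 5.52 to 6.43 over the 17 melanoma arrays, and its line means ran from 5.83 in D to 6.27 in DB#2. Plod1, which hydroxylates lysines of the helix, ranged over line means from 1.98 in DB#1 to 2.47 in DB#2. Plod2, the enzyme of the telopeptide lysines, ranged from 0.31 in DB#3 to 0.56 in M, and Plod3, which can also attach sugars, from 1.56 in M to 1.91 in D. P4ha1, the main catalytic subunit in most cells, ranged from -0.60 in DB#3 to 0.00 in DB#2. P3h1 ranged from 0.55 in DB#2 to 0.99 in DB#1. By the brightest probe, none of these 6 was called in any comparison of melanoma lines, and their arrays overlapped between neighbouring lines throughout. The second probe of P4ha1 had line means from -2.41 in DB#3 to -1.39 in D. It read -1.49 to -1.39 in M and -1.99 to -1.73 in DB#2, without overlap. Likewise, the second probe of Plod3 read -1.40 to -1.09 in M, apart from -0.97 to -0.81 in DB#3.

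P4ha3, the third catalytic subunit, was not well above background on 23 of 24 arrays and was tested in no comparison. Only D replicate 3 read it, at -2.17 with 1 probe and -4.03 with the other, where the other D arrays gave -6.45 to -5.82 and -6.85 to -5.79. That array is the one with the raised share of probes above background.

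**Figure D2:**
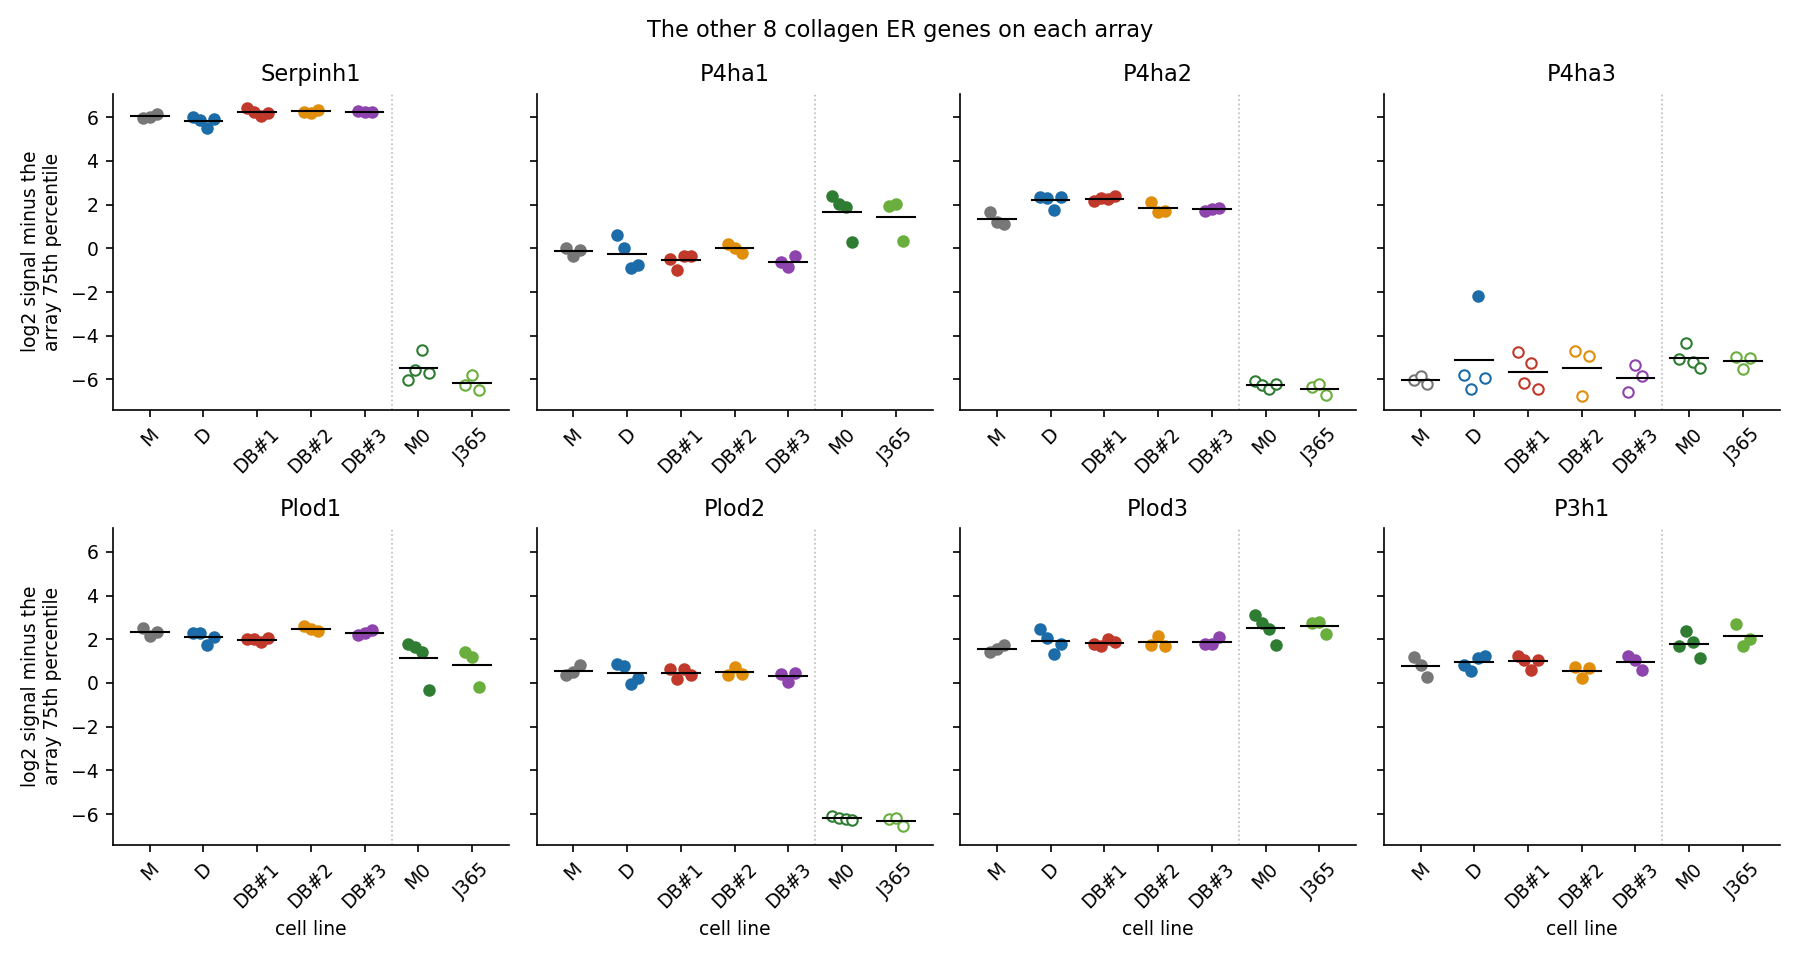
Normalized log2 signal (log2 intensity minus the array's 75th percentile) of the other 8 genes on each of 24 arrays by cell line, with the brightest probe of each; filled points are well above background, open points are not, and bars are line means. Serpinh1, P4ha2 and Plod2 are read only in the melanoma lines, and P4ha3 only on 1 D array.

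For DB#2 against M, the comparison with M that did not enter the choice of genes, the intervals show how much 7 of the 8 remaining genes could still differ, P4ha3 being untested. The 95% interval of the log2 difference, not corrected for the number of genes, was 0.11 to 0.88 for P4ha2, which excludes zero although its adjusted p missed the threshold. It was -0.29 to 0.71 for Serpinh1, -0.53 to 0.38 for Plod2, -0.30 to 0.91 for Plod3, -0.87 to 0.42 for P3h1, -0.71 to 1.01 for Plod1 and -0.86 to 1.12 for P4ha1. Adjusted p was 0.863 for Plod3 and higher for the other 5. A 2-fold difference was therefore outside the interval for P4ha2, Serpinh1, Plod2, Plod3 and P3h1 but not for Plod1 and P4ha1.

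Among the 10 genes, calls at an adjusted p under 0.05 (limma, Benjamini-Hochberg over all genes tested) between melanoma lines fell on 3 names. Fkbp10, Rcn3 and P4ha2 were called in D against M, where 2.97% of all tested genes were called, and in DB#1 against M, where 3.69% were. Fkbp10 and Rcn3 were called in DB#3 against M (2.76% of all genes) and in DB#2 against M (3.44%). Between the other melanoma lines, Fkbp10 was called higher in DB#1 than in D (0.475% of all genes) and in DB#3 than in D (0.369%). Fkbp10 and Rcn3 were called lower in DB#2 than in D (6.34%), DB#1 (5.47%) and DB#3 (4.44%). None of the 10 was called between DB#3 and DB#1 (0.229%). Since Fkbp10 and Rcn3 prompted the choice and these comparisons use the same arrays, all of these counts are given without a reading. Deviations from the line means correlated at a mean r of 0.49 between arrays of different lines on the same slide and of -0.22 on different slides, and with the slide as a block Rcn3 was also called in DB#1 against D, at 1.41. The Rcn3 call of DB#2 against D was lost without D replicate 2, 3 or 4 or without any DB#2 array, at differences of -1.46 to -0.94, and that of DB#2 against DB#3 without any DB#2 array or without DB#3 replicate 4 or 5, at -1.65 to -1.14. Likewise, the Fkbp10 call of DB#3 against D was lost without DB#3 replicate 3 or 5, at 1.82 to 1.83 against 1.85 with all arrays.

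The median difference of the 10 genes was 0.26 in D against M, 0.24 in DB#1, 0.19 in DB#3 and 0.25 in DB#2, beside medians of -0.01, 0.04, 0.03 and 0.02 over all genes tested. Those for the 10 include P4ha3, which was not tested, and Fkbp10 and Rcn3, which prompted the choice, so no shift of the set is read from them. Among the other tested genes, the difference of D from M was -0.23 for Serpinh1, -0.21 for Plod1, -0.13 for P4ha1 and -0.10 for Plod2. It was 0.17 for P3h1, 0.35 for Plod3 and 0.86 for P4ha2.

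**Figure D3:**
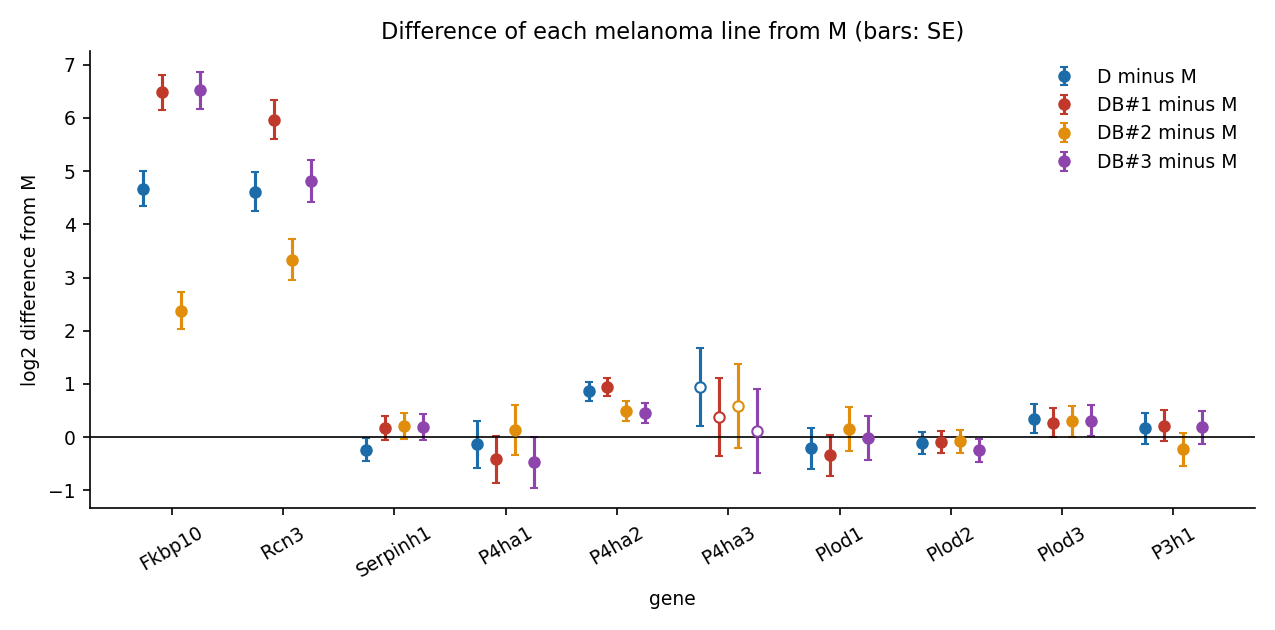
Log2 difference of each melanoma line from M for the 10 genes, with SE bars; open points mark P4ha3, which was not tested. Fkbp10 and Rcn3 lie between 2.38 and 6.52 above M, P4ha2 between 0.45 and 0.94, and the other tested genes within 0.5 of zero.

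The comparison of the 5 melanoma lines with the 2 myeloid lines, which had the most calls, divided the 10 genes. Serpinh1, P4ha2, Plod2 and Fkbp10 were well above background on all 17 melanoma arrays and on none of the 7 myeloid arrays. Taken as bounds against the dimmest signal that counts as above background, mean levels in the melanoma lines were at least 1251-fold higher for Serpinh1 (adjusted p 1.3e-24), at least 65.8-fold for P4ha2 (9.1e-24), at least 24.5-fold for Plod2 (3.43e-21) and at least 25.0-fold for Fkbp10, which is given without a test. Fitted adjusted p-values of the 3 tested genes rest on readings below background in the myeloid lines.

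Plod1 was also higher in the melanoma lines, by 1.27 ± 0.23 (SE, adjusted p 5.52e-05). Its melanoma arrays ranged from 1.73 to 2.60 and its myeloid arrays from -0.35 to 1.79, so that the groups met only at their edges. The M0 array with no replicate number read -0.35 and the J365 array with no number -0.20, while the other 5 myeloid arrays read 1.17 to 1.79. Without those 2 arrays the difference was 0.78 (adjusted p 1.68e-06).

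In the other direction, P4ha1 was lower in the melanoma lines, by a log2 difference of -1.86 ± 0.27 (SE, adjusted p 2.58e-06). M0 read 2.41, 2.05, 1.90 and 0.29, and J365 read 1.95, 2.03 and 0.36, the last value of each being the array with no number. The melanoma arrays ranged from -0.996 to 0.593, and without those 2 arrays the log2 difference was -2.36. Its second probe gave -1.53. Plod3 differed by -0.75 ± 0.16 (adjusted p 0.000364), with -0.43 by its second probe. Its groups overlapped, at 1.32 to 2.49 on melanoma and 1.72 to 3.12 on myeloid arrays. By the second probe they read -1.40 to -0.21 and -1.64 to 0.24. Rcn3, described without a test, was lower in the melanoma lines by a log2 difference of -4.87 ± 0.22, with -3.74 and -4.64 by the other probes.

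P3h1 gave opposite answers with its 2 probes. The brighter probe was lower in the melanoma lines, by a log2 difference of -1.12 ± 0.17 (SE, adjusted p 8.11e-06), with 0.24 to 1.25 on melanoma and 1.16 to 2.71 on myeloid arrays. By the dimmer probe P3h1 was higher in the melanoma lines by 1.10 (adjusted p 1.31e-07), with -1.04 to -0.36 on melanoma and -2.28 to -1.20 on myeloid arrays. The mean of the probes differed by -0.01 (adjusted p 0.964). Both probes were well above background on all 24 arrays, so the direction for P3h1 depends on the probe.

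**Figure D4:**
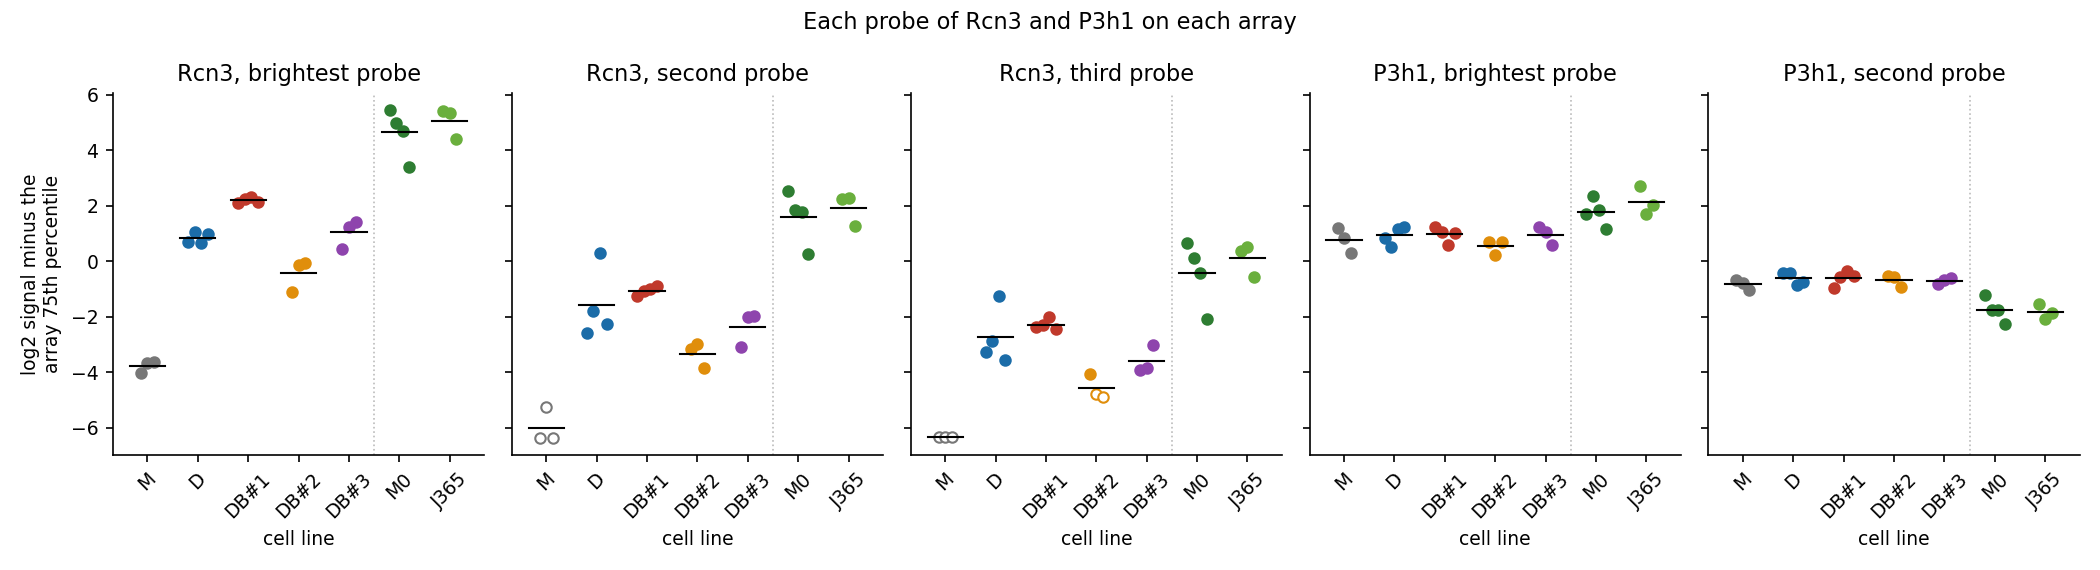
Normalized log2 signal (log2 intensity minus the array's 75th percentile) of each probe of Rcn3 and P3h1 on each of 24 arrays by cell line; filled points are well above background, open points are not, and bars are line means. The 3 Rcn3 probes all place M lowest and the myeloid lines highest, whereas the P3h1 probes move in opposite directions between melanoma and myeloid lines.

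Beside Fkbp10 and Rcn3, 7 genes were tested between melanoma and myeloid lines, and by the brightest probe all were called, 4 higher and 3 lower, where 71.8% of all tested genes were called. P3h1 is 1 of the 3 lower; by its other probe it counts among the higher, and by the probe mean it is not called. Between the myeloid lines themselves, none of the 5 genes tested was called in J365 against M0 (1.47% of all genes). Their log2 differences were 0.40 for Rcn3, -0.21 for P4ha1, -0.32 for Plod1, 0.10 for Plod3 and 0.37 for P3h1, each with an adjusted p of 0.907 or higher.

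**Figure D5:**
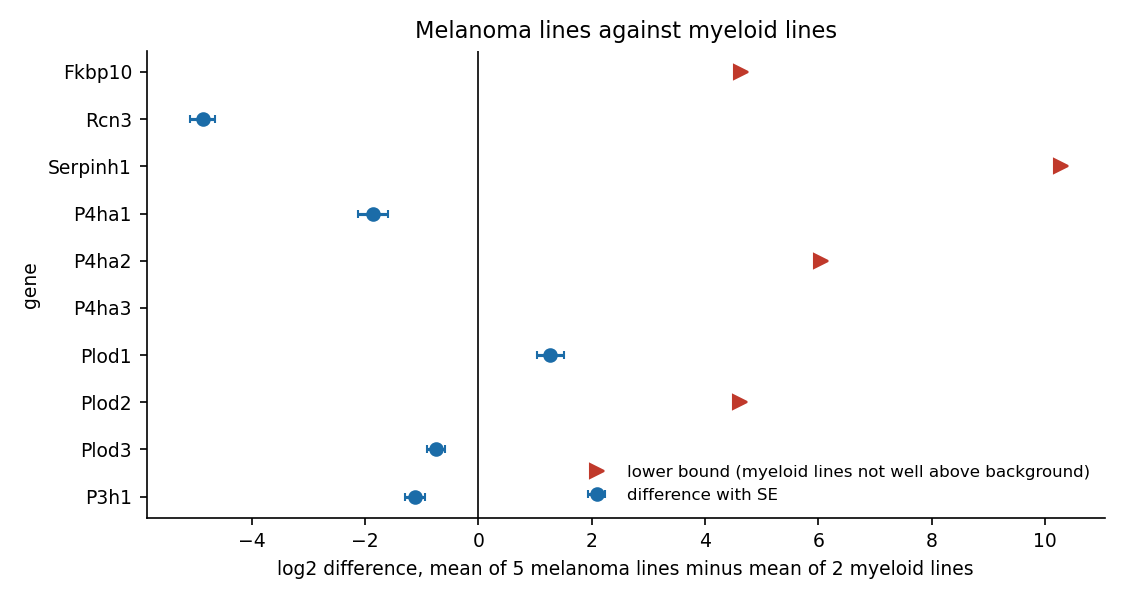
Log2 difference of the mean of 5 melanoma lines from the mean of 2 myeloid lines for each gene; circles are fitted differences with SE, triangles are lower bounds for genes that no myeloid array read above background, and P4ha3 has no point. Bounds lie between 4.61 and 10.29, and P4ha1, Plod3, P3h1 and Rcn3 lie below zero.

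The promoter windows of 3 genes are shown because they stand for the patterns above: Rcn3, which differed among melanoma lines, P4ha2, which moved with it to a smaller extent (r = 0.76 over 17 melanoma arrays), and Serpinh1, steady in the melanoma lines and unread in the myeloid lines. Sequences come from RefSeq on GRCm38.p6 and run 5′ to 3′ along the gene from 250 bases before to 50 after its start. Capitals mark ACGTG, the core of the hypoxia response element, and CCACG, part of the ER stress response element, on either strand (CACGT and CGTGG), which share bases where they overlap. Rcn3 lies at chr7:45092164-45092463 on the minus strand, P4ha2 at chr11:54100674-54100973 on the plus strand and Serpinh1 at chr7:99353190-99353489 on the minus strand.
Rcn3: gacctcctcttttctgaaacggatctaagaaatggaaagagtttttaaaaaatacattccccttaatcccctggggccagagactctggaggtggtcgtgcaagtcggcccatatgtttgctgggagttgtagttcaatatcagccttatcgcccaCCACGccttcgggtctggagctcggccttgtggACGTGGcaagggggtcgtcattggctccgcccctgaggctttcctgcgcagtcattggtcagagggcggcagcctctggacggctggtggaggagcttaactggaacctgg
P4ha2: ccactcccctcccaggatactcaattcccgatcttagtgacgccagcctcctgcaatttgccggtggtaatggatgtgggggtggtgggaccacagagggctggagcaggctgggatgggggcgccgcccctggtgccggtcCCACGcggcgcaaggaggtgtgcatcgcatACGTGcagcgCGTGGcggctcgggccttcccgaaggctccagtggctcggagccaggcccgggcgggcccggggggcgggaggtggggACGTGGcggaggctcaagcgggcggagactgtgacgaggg
Serpinh1: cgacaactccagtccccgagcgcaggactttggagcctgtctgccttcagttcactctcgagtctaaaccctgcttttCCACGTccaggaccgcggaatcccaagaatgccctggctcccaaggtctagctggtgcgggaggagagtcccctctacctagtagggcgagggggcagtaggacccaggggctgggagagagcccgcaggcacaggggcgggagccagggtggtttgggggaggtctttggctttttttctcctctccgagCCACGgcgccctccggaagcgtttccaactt

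The Rcn3 window held 1 match to ACGTG and 2 to CCACG, the P4ha2 window 2 and 3, and the Serpinh1 window 1 and 2. Of the 9 windows for 8 of the 10 genes, 6 held ACGTG and 7 held CCACG, while 19.6% and 32.8% of 32851 windows of all genes did. The 9 windows hold 53.3% to 70.3% G or C, and no windows of like composition were set beside them, so an excess cannot be read from these shares. P3h1 gave 2 of the 9, and overlapping letters can count for both motifs. A match describes letters in the window and not a bound site, and windows for Fkbp10 and Plod2 were not analysed here.

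The protein partners of these enzymes showed no called difference from M. P4hb, the shared subunit of prolyl 4-hydroxylase, had line means of 5.15 in M, 5.33 in D, 5.32 in DB#1, 5.29 in DB#2 and 5.23 in DB#3. Crtap and Ppib, which complete the P3h1 complex, ranged over the melanoma lines from 3.83 to 4.21 and from 5.16 to 5.46. None of these 3 was called between J365 and M0 either. Against the myeloid lines Crtap was higher in the melanoma lines by 1.34 ± 0.17 (adjusted p 7.07e-07), P4hb differed by -0.52 ± 0.21 (adjusted p 0.0356) and Ppib by -0.11 ± 0.12 (adjusted p 0.439).

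Of all genes tested against M, 2.97% were called in D, 3.69% in DB#1, 3.44% in DB#2 and 2.76% in DB#3. These shares stand beside the counts in the lists that follow. Among 25 ER partners and paralogues of the 10 genes, 23 were tested against M, so that a single call is 4.35% of them. In D 1 of the 23 was called lower, Fkbp14, a smaller prolyl isomerase of the ER, at -0.95 ± 0.22. Fkbp14 was also the 1 called in DB#1, at -0.83 ± 0.22. In DB#2 the 1 call was P3h2, a prolyl 3-hydroxylase of basement membrane collagen, higher by 1.27 ± 0.25 (adjusted p 0.00322), and in DB#3 none was called. Of 20 general ER chaperones, all tested, only Hsp90b1 (GRP94) in D was called, lower at -0.54 ± 0.13. The median difference of the chaperones lay between -0.23 and -0.13 in the 4 lines.

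Of 36 collagen chains, 14 were tested in D, DB#1 and DB#3 and 15 in DB#2. Col4a1, a chain of basement membrane collagen, was called higher in D, DB#1 and DB#3. No M array read it above background, so it was at least 9.19-fold higher in D, 10.74-fold in DB#1 and 8.64-fold in DB#3. Its partner Col4a2 was called in D only, at 1.52 ± 0.41 (adjusted p 0.0484). D replicate 3 read it at -0.998 against -3.17 to -2.11 on the other D arrays, and without that array the difference was 1.08 (adjusted p 0.114) and not called. Col7a1, named after its values were seen, was called in D at 1.34 ± 0.28. DB#2 differed: no DB#2 array read Col4a1 above background, and its single call was Col5a3, lower at -0.88 ± 0.24 (adjusted p 0.0457). Col5a3 was also the 1 chain of 11 tested that was called in J365 against M0, at least 2.83-fold higher (adjusted p 1.83e-06).

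Of 13 genes for collagen processing and cross-linking, 6 were tested in D, with none called, and 7 in each DB line. Pcolce2, an enhancer of the protease that trims procollagen, was not above background in M and was at least 3.84-fold higher in DB#1, 1.68-fold in DB#2 (adjusted p 0.000116) and 2.00-fold in DB#3. Its relative Pcolce was called higher in DB#1, at 0.89 ± 0.21, and in DB#3, at 0.87 ± 0.23. Pcolce had a mean of 4.67 in D against 3.90 in M, without a call. P4ha1, P4ha2 and Plod2 are often counted among hypoxia-inducible genes, but P4ha2 is not in the list of 16 such genes described here. Of those 16, 15 were tested against M. Ak4, a mitochondrial adenylate kinase, was called higher in D at 2.91 ± 0.30, in DB#1 at 2.50 ± 0.30 and in DB#3 at 2.04 ± 0.32. Ddit4, an inhibitor of mTORC1, was called lower in DB#3 at -1.40 ± 0.35, and none of the list was called in DB#2.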

How the data were processed

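Total RNA of 24 samples of 7 lines was labelled with cyanine 3 and hybridised to 1-colour Agilent mouse arrays, 8 on each of 3 slides. The authors deposited 1 scanner table per array (Agilent Feature Extraction 10.7.3.1 per the labels' processing notes), whose processed intensity is already background-corrected. Their series table holds the same intensity without a log, equal in all 1511424 values. Intensities were taken as log2 and centred on each array's 75th percentile over 56488 probes. Control spots and 117 probes flagged as outliers were left out, and no kept spot was saturated. Probes were named through their RefSeq accession (32917 probes, 22881 symbols, annotation GRCm38.p6), and a gene was read by its brightest probe over all arrays.

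One limma (3.58.1, R 4.3.3) fit over 24 arrays with a term per line gave differences, SE, and p-values adjusted by Benjamini-Hochberg over all genes tested, which were those well above background on every array of at least 1 line compared. Calls are at an adjusted p under 0.05. The number of arrays limits the precision. The procedure was tested on simulated data with a spread independent between arrays. Those data held neither deviations shared by a slide nor an array like D replicate 3, so the test does not cover either. Replicate numbers paired the arrays of DB#1 and M only (correlations of deviations 0.57 to 0.91 in 3 pairs). In the other comparisons there were fewer than 3 pairs or not every pair correlated above 0.1. The 10 genes were named with every probe. From each gene list, up to 2 called rises and 2 falls per comparison with M and in J365 against M0 were named, with P4hb, Crtap and Ppib whatever their values, and the 5 genes of highest Pearson correlation with Fkbp10 and with Rcn3 over the melanoma arrays. Alternatives were other scalings, background corrections, filters, blocks, probes and sets of arrays. The spot median replaced the spot mean in the normexp alternative. The 10 genes and the lists were chosen with earlier results of these data known.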

Additional observations from a re-analysis of the deposited data

Results flagged for a closer look

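In 30 groups of 4 arrays (the 10 genes in D, DB#1 and M0), 2 held a reading far from the other 3 of its line, and chance flags about 1 group in 20. Both were on D replicate 3. P4ha2 read 1.76 there against 2.32 for the nearest other D array, a gap of 0.947 of the range of the line. P4ha3 read -2.17 against -5.82, a gap of 0.852 of the range.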

How the results depend on the processing

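Recomputing the counts of called genes among the 10 left most unchanged. With no scaling between arrays, DB#1 against D and DB#3 against D gave 0 in place of 1 each. Without the filter on dim probes, DB#2 against D and DB#2 against DB#3 gave 1 in place of 2 each. Requiring every array of all lines above background gave 5 in place of 9 between melanoma and myeloid lines, since fewer genes can then be tested. The slide as a block, array weights, and a fit of only the arrays compared gave 2 in place of 1 in DB#1 against D. A fit of only the arrays compared also gave 1 in DB#2 against D, 0 in DB#3 against D and 1 in DB#2 against DB#3. Array weights gave 2 in place of 0 in DB#3 against DB#1, and the mean of all probes gave 1 in DB#2 against DB#3. With the replicate block, which drops the 2 arrays that carry no number, DB#1 against D gave 2 and DB#2 against DB#3 gave 1, and no count of the other 10 comparisons left 1.5 times its value; DB#1 against M stayed at 3. Leaving out 1 array at a time gave 2 to 3 in D against M, 1 to 2 in DB#2 against D, 1 to 2 in DB#2 against DB#3 and 0 to 1 in DB#3 against D, and the main count in the other 8 comparisons. Without D replicates 1 and 3 together, chosen after seeing the data, DB#2 against D gave 1 and DB#3 against D gave 0. The Rcn3 bounds and the Col4a2 difference without D replicate 3 were also added after seeing the data. Of 2442 recomputed differences of single genes, 35 lost and 15 gained a call and 1 reversed: P3h1 between melanoma and myeloid lines by its other probe, at 1.10. Except where a sentence gives one, the cause was not tested. Signal over background limits P4ha3 in all lines and Fkbp10, Serpinh1, P4ha2 and Plod2 in the myeloid lines. It also limits Fkbp10 and Rcn3 in M, whose readings were near the dimmest signal that counts as above background.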
